A study of Homo sapiens with 15 samples.

Results

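The region examined here was the promoter side of the mitochondrial non-coding region (NCR), from position 191 to position 578 of the hg19 mitochondrial genome as the deposited files number it. It was chosen by position alone and taken on both strands. It holds no gene and ends at the base before MT-TF, the gene of tRNA-Phe. Of its 776 combinations of position and strand, 732 held a terminus in at least 1 sample (365 on the H strand and 367 on the L strand), out of 32390 in the whole mitochondrial genome. The samples were wild-type K562 cells, an established human chronic myeloid leukemia line. All were crosslinked with formaldehyde and lysed to a nuclear pellet, which also carried mitochondrial DNA. The pellets were left untreated or digested with 0.01, 0.1, 1 or 10 U of nuclease P1, an enzyme that cuts single-stranded DNA, with 3 biological replicates each and 15 samples in all. The plus strand of the files was taken as the H (heavy) strand and the minus strand as the L (light) strand.

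SSiNGLe-P1 reads the position and strand of 3′-OH termini, the ends left by breaks in DNA, and the count of termini at each position was the measurement. Samples held 29622 to 692989 mitochondrial termini (median 382515), of which 534 to 7873 (median 3703) lay in the region. The samples with 10 U were the shallowest, with 42899, 57127 and 29622 mitochondrial termini in replicates 1 to 3. The methods name no molecular identifiers, so termini are not independent molecules, and intervals and limits cover counting error only. Fewer DNA molecules and fewer breaks per molecule cannot be told apart in such counts, and values are therefore given as shares, ratios or densities.

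The region holds the start of both transcription and replication in human mitochondria. The light-strand promoter (LSP) and the heavy-strand promoter (HSP) are bound by TFAM, which bends the DNA, and are read by the polymerase POLRMT. Transcripts from LSP run through the conserved sequence blocks CSB3, CSB2 and CSB1, in that order. The RNA can stay paired to DNA around CSB2 as an R-loop, end there, or serve as the primer for a new H strand, whose 5′ ends at the heavy-strand origin OH lie around CSB1 and beyond. Most such new strands end early as 7S DNA and displace the parental H strand over the body of the D-loop, outside the region.

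The region was divided into 11 windows: the stretch before CSB1 (191 to 212), CSB1 (213 to 235), CSB1 to CSB2 (236 to 298), CSB2 (299 to 317), CSB2 to CSB3 (318 to 347), CSB3 (348 to 365), CSB3 to LSP (366 to 393), LSP (394 to 447), LSP to HSP (448 to 546), HSP (547 to 569) and HSP to tRNA-Phe (570 to 578). The stretches that carried the main peaks are printed because the results turn on single bases in them. They are the plus strand of the GRCh37 reference, which reads as the L strand, 5′ to 3′, with coordinates in the reference's own numbering. Capitals mark the named peak positions, and a terminus on the H strand lies at the complement of the capital.
CSB1, chrM:213-235: taattaatGCttgtagGaCataa
CSB1 to CSB2, chrM:256-280: cacagccactttCcacacagacatc
CSB2, chrM:299-315: caaaccccccctccccc
CSB3, chrM:346-363: tgccaaacccCaaaaaca
LSP, chrM:400-428: ttatcttttGGcggtatgcacttttaaca
LSP to HSP and the first bases of HSP, chrM:528-549: tgctaacCCCataccCcGaacc
HSP, chrM:550-567: aaccaaaCcCcaaagaca
HSP to tRNA-Phe, chrM:568-576: cccCccaca

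Positions in the text are those of the files, with the strand as a letter. The capitals are 221H, 222L, 229H and 229L (1 base) and 231H in CSB1, 268H between CSB1 and CSB2, 358L in CSB3, 411H and 412H in LSP, 537L, 538L, 539L, 545H and 547H around the start of HSP, 559H and 561L in HSP, and 573H before tRNA-Phe. The reference has 16569 bases and the genome of the files is 2 bases longer. Numbers were shared up to CSB2, later stretches were placed by their distance to the tRNA-Phe gene, and within CSB2 no position could be assigned to a base. The bases at the termini set this placement. Before CSB2 the last 2 bases of the broken strand were both G or C for 54.3% of 10942 termini without a shift, against 17.6% or less at the other shifts tried. After CSB2 they were so for 81.0% of 46240 termini with a shift of 2 bases, against 65.2% or less. Windows follow textbook element positions, and moving their boundaries by 2 bases was tried as an alternative.

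Termini sat on a minority of bases. With this placement, 74 of 369 positions on each strand (20.1%) had G or C as their last base and the base before it, and these held 79.4% ± 0.592 (SD, n = 3) of H termini and 75.9% ± 0.583 of L termini in untreated samples. At 10 U they held 75.6% ± 2.87 on the H strand and 66.8% ± 2.49 on the L strand. Over all samples 64.7% of H termini ended on G, the base at 34.7% of H positions, and 73.8% of L termini ended on C, the base at 34.7% of L positions. These values are a description, since the placement was chosen for its high share.

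The first comparison asked how the strand ratio of the region followed the amount of P1. Termini were nearly even between the strands without P1, lay mostly on the H strand at 1 U, and were close to even again at 10 U. The H/L ratio was 1.18, 1.14 and 1.15 in the untreated replicates 1 to 3 and 1.18, 1.29 and 1.34 with 0.01 U. It was 2.53, 2.91 and 3.04 with 0.1 U, and 4.53, 6.06 and 10.9 with 1 U. Each of these groups lay wholly above the group before it, except that 0.01 U overlapped the untreated samples. With 10 U it was 1.34, 1.25 and 1.66, above all untreated samples and below all those with 0.1 U. Group means were 1.16 ± 0.0191, 1.27 ± 0.0832, 2.83 ± 0.262, 7.16 ± 3.31 and 1.42 ± 0.213 (SD, n = 3). Relative to the untreated sample of the same number, the ratio was 2.43 times higher at 0.1 U, 5.77 at 1 U (3.84 to 9.42 over replicates) and 1.21 at 10 U. The 5 amounts differed by more than the replicates did (exact permutation test within replicate numbers, 14400 arrangements, p = 0.000278). Without the 5 highest positions of each strand the mean at 1 U was 6.92 ± 3.28. Both strands lost their peaks here, so this value does not give the part of the peaks in the H excess. Position 268H alone held 9.11% of the region's H termini at 1 U.

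**Figure D1:**
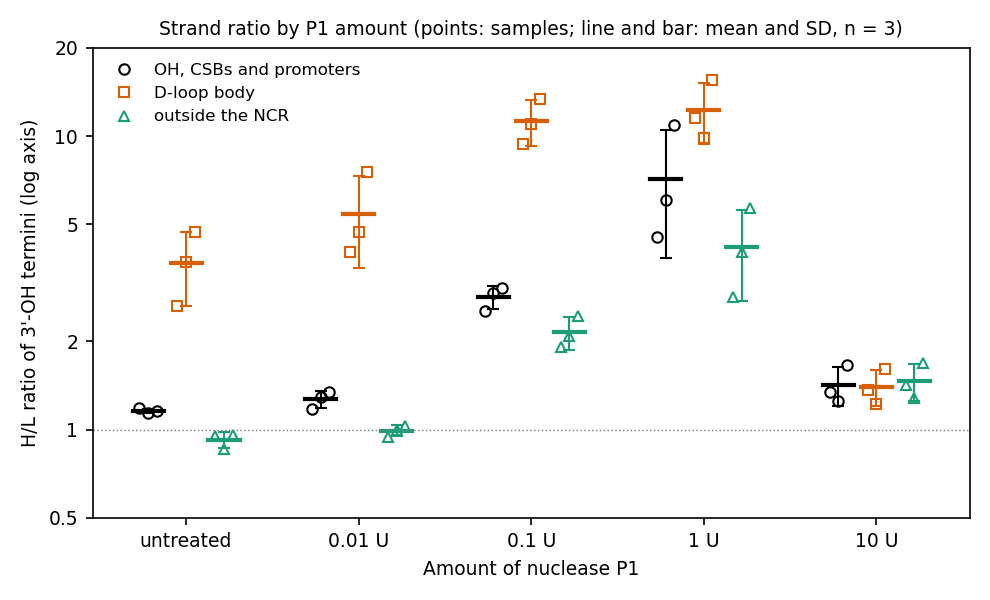
H/L ratio of 3′-OH termini (vertical, log axis) by amount of P1 for each of the 15 samples, in the region, the D-loop body and the genome outside the NCR; points are samples, lines and bars are mean and SD of 3 replicates. The region rises from a mean of 1.16 to 7.16 at 1 U, between the other parts, and all 3 parts lie close together at 10 U (means 1.40 to 1.46).

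Counted as unique sites (positions with at least 1 terminus), the H/L ratio was 1.05, 0.95 and 0.969 untreated, 1.33, 1.38 and 1.37 at 0.1 U, 1.47, 1.63 and 1.91 at 1 U and 1.19, 1.10 and 1.38 at 10 U (exact permutation p = 0.000556). At 1 U, 312 to 325 of the 388 H positions and 163 to 213 of the L positions held a terminus. When both strands of every sample were brought to 201 termini, the ratio of unique sites was 0.937 ± 0.0493 untreated, 0.953 ± 0.0102 at 1 U and 1.08 ± 0.0170 at 10 U. The H excess in unique sites at 1 U was therefore not seen at equal numbers of termini, where 1 U was 1.02 times the untreated value.

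The H excess was shared with the rest of the mitochondrial genome. In all termini, the ratio of the region was above that outside from untreated samples to 1 U, most so at 1 U. At 10 U it was slightly below. Outside the NCR the H/L ratio was 0.923 ± 0.0592 untreated, 4.18 ± 1.43 at 1 U and 1.46 ± 0.209 at 10 U. The ratio of the region divided by that outside was 1.24, 1.33 and 1.20 untreated, 1.60, 1.51 and 1.92 at 1 U and 0.943, 0.980 and 0.982 at 10 U, with no overlap between these groups (exact permutation p = 0.000764 over 5 amounts). In unique sites the quotient was 0.990 ± 0.0587, 1.05 ± 0.00621 and 0.955 ± 0.0528, and the 5 amounts did not pass the test (exact permutation p = 0.163).

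In all termini, the strand ratio of the region lay below that of the D-loop body up to 1 U and was close to it at 10 U. The D-loop body, here the 605 positions from 50 bases past the 7S DNA end to the base before the region, had an H/L ratio of 3.69 ± 1.04 untreated, 12.3 ± 2.88 at 1 U and 1.40 ± 0.194 at 10 U. The ratio of the region divided by that of the D-loop body was 0.448, 0.308 and 0.245 untreated, 0.393, 0.615 and 0.703 at 1 U and 0.985, 1.02 and 1.03 at 10 U (exact permutation p = 0.00278). In unique sites the quotient was 0.801 ± 0.0580 untreated, 1.15 ± 0.133 at 1 U (1.00 to 1.25) and 1.10 ± 0.103 at 10 U (exact permutation p = 0.00229). There the region was at or above the D-loop body at 1 U, and the factor at 10 U was 1.37 in place of 3.13. Unique sites of a strand cannot exceed its 605 positions, and at 1 U the D-loop body held 33727 to 38766 H termini. Its ratio of unique sites was therefore limited, and the quotient was not taken at equal numbers of termini. For all termini the exact permutation p was 0.0667 without replicate 2 and 0.0583 without replicate 3.

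The shares of both strands changed with P1. Shares are parts of a total, so a rise on the H strand lowers the shares of the L strand. Whether L termini fell in number cannot be told from them. The same holds for the levels and fold changes given below. On the H strand the region held 0.469%, 0.436% and 0.407% of all mitochondrial termini in untreated samples, 1.70%, 1.87% and 2.41% at 1 U and 1.07%, 1.03% and 1.12% at 10 U (exact permutation p = 0.000208). On the L strand it held 0.398%, 0.382% and 0.352% untreated, 0.265%, 0.202% and 0.233% at 0.1 U, 0.375%, 0.309% and 0.222% at 1 U and 0.797%, 0.824% and 0.679% at 10 U. The L shares differed between amounts (exact permutation p = 0.00340), but not past 0.05 without replicate 2 (p = 0.117). The L share at 10 U depended on the total: as a percentage of termini outside the NCR it was 1.18% ± 0.0115 untreated and 1.05% ± 0.0632 at 10 U, a factor of 0.889 in place of 2.03. On the same scale the H share was 1.37% ± 0.0359 untreated, 3.32% ± 0.693 at 1 U and 1.48% ± 0.135 at 10 U.

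The second comparison asked which elements changed. Termini were counted in each window and strand and in 35-base tiles of the rest of the genome, and each amount was compared with the untreated samples by edgeR's quasi-likelihood test with Benjamini-Hochberg adjustment over 948 rows (474 per strand). Levels are given as termini per position per 1000000 termini outside the NCR, and calls are at an adjusted p below 0.05. With 0.01 U no window was called, nor was any row of the table (0% of 948). At that amount 1 of the 22 windows had an unadjusted p below 0.05, and DESeq2 called none.

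At 0.1 and 1 U the strands moved apart, as they did over the genome. At 0.1 U, 9 of 11 H windows were called higher (76.4% of all H rows) and none lower (3.16%), and 6 of 11 L windows were lower (64.8% of all L rows) and 1 was higher (0.422%). At 1 U, 10 H windows were higher (80.0%) and none lower (7.59%), and 9 L windows were lower (91.1%) and 2 higher (1.69%). The median log2 fold change at 1 U was 1.56 over the H windows and -0.88 over the L windows, beside 1.26 and -0.94 over all rows. At 10 U, 5 H windows were higher (44.7%) and 2 lower (10.1%), and 4 L windows were higher (23%) and 4 lower (30.6%). The 6 windows called lower at 0.1 U became 0 without replicate 2, and the 6 called lower at 10 U became 3 without replicate 1 and 2 without replicate 2. With library sizes taken from termini outside the NCR, the median of all H rows was lower by 0.26 at 0.1 U, 0.47 at 1 U and 0.31 at 10 U on the log2 scale, that of L rows moved by -0.26, -0.45 and -0.32, and 10 windows were called lower at 10 U.

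**Figure D2:**
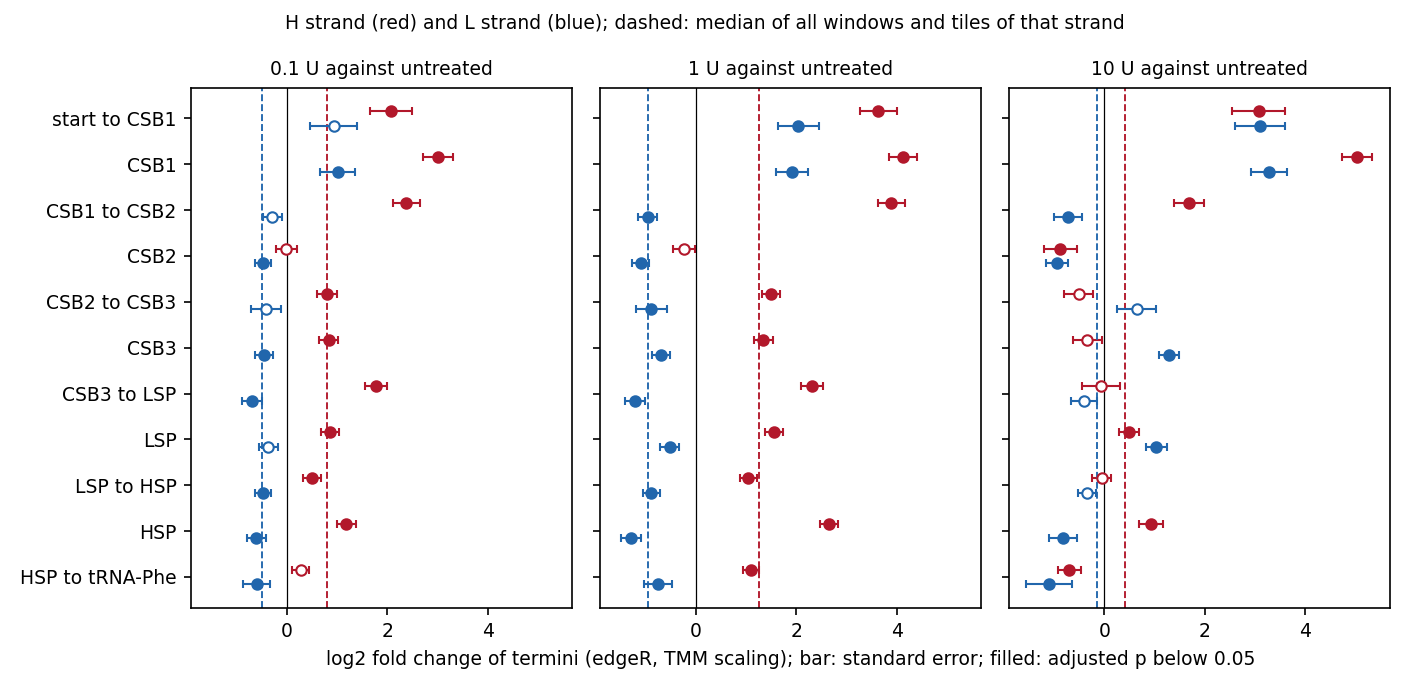
Log2 fold change of termini against untreated samples (horizontal, edgeR with TMM scaling, bars are standard errors) in the 11 windows at 0.1, 1 and 10 U, H strand in red and L strand in blue; filled points have an adjusted p below 0.05 and dashed lines are medians of all rows of that strand. CSB1 stands farthest to the right on the H strand (4.13 at 1 U and 5.03 at 10 U), and on the L strand at 1 U the first pair of windows alone lies above 0.

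CSB1 and the stretch before it, the OH side of the region, gained termini on both strands. CSB1 had few untreated H termini, at 8.15, 3.70 and 2.99 (7, 13 and 10 termini). Its H level was 21.8, 22.6 and 32.8 at 0.1 U, 37.2, 52.8 and 55.0 at 1 U and 98.7, 72.9 and 138 at 10 U, each group wholly above the one before. The log2 fold changes were 3.01 ± 0.30 (SE, adjusted p = 2.17e-10, edgeR), 4.13 ± 0.28 (adjusted p = 6.59e-15) and 5.03 ± 0.30 (adjusted p = 1.45e-16), and all 9 alternative settings kept each call. CSB1 on the L strand had 4.66, 4.26 and 2.99 untreated, 7.04, 11.7 and 11.1 at 1 U and 29.2, 24.0 and 33.9 at 10 U. It rose by 1.92 ± 0.32 (SE) at 1 U and 3.28 ± 0.36 at 10 U on the log2 scale (adjusted p = 1.64e-06 and 1.09e-09, edgeR). The stretch before CSB1 held 4, 9 and 7 untreated H termini, and 68, 116 and 118 at 1 U. It rose on the H strand by 2.07, 3.63 and 3.07 at 0.1, 1 and 10 U and on the L strand by 2.04 and 3.09 at 1 and 10 U.

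Between CSB1 and CSB2 the H strand rose most at 1 U. Its level was 23.8, 8.82 and 9.59 untreated, 48.7, 49.2 and 59.9 at 0.1 U, 106, 119 and 165 at 1 U and 37.6, 34.3 and 18.6 at 10 U, so the 1 U samples stood above all others. Log2 fold changes were 2.37 ± 0.27 (SE), 3.89 ± 0.27 and 1.68 ± 0.30 (adjusted p = 2.40e-09, 9.67e-15 and 1.55e-05, edgeR). The L strand fell in the same window, from 13.2, 11.9 and 11.6 to 6.57, 4.06 and 3.51 at 1 U (-0.95 ± 0.20, adjusted p = 3.93e-05). Its H/L ratio was 1.81, 0.739 and 0.830 untreated and 16.1, 29.2 and 47.0 at 1 U, the highest mean of the 11 windows at that amount (30.8 ± 15.5).

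CSB2, whose C-rich L strand is printed above, was not called higher on the H strand at any amount. Its H level was 32.4, 61.6 and 45.9 untreated, 27.7, 26.7 and 39.1 at 1 U and 15.1, 20.6 and 33.3 at 10 U. It was the only H window not called higher at 1 U (log2 fold change -0.23 ± 0.22, adjusted p = 0.324, edgeR), and at 10 U it was lower (-0.88 ± 0.33, adjusted p = 0.0230), a call that 7 of 9 alternatives kept. CSB2 fell on the L strand, from 90.2, 106 and 109 untreated to 46.7, 34.5 and 26.0 at 1 U and 35.3, 44.7 and 53.8 at 10 U. All treated samples at these amounts lay below the untreated ones (-1.09 ± 0.17 and -0.93 ± 0.22, adjusted p = 5.53e-07 and 0.00046, edgeR). The H/L ratio of CSB2 thus still rose at 1 U. It was 0.359, 0.581 and 0.421 untreated, 0.594, 0.773 and 1.51 at 1 U and 0.429, 0.459 and 0.619 at 10 U. From CSB2 to CSB3 the H strand rose by 0.80 and 1.5 at 0.1 and 1 U and was at -0.51 at 10 U (adjusted p = 0.136).

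CSB3, the first block on the path of LSP transcripts, went opposite ways on the L strand, lower at 1 U and higher at 10 U. Its L level was 96.7, 65.0 and 66.0 untreated, 35.7, 38.0 and 26.5 at 1 U and 188, 140 and 103 at 10 U, with no overlap between the 3 groups. It fell by 0.69 at 1 U (adjusted p = 0.000731, edgeR) and rose by 1.29 ± 0.19 (SE, adjusted p = 7.16e-07) at 10 U, where all 9 alternatives kept the call. The H strand of CSB3 had 50.6, 34.1 and 43.1 untreated, 61.2, 63.8 and 102 at 1 U and 28.4, 21.7 and 27.1 at 10 U. It rose at 1 U (1.35 ± 0.19, adjusted p = 7.87e-08), and at 10 U the log2 fold change was -0.34 (adjusted p = 0.343). The H/L ratio of CSB3 was 0.523, 0.525 and 0.653 untreated, 1.71, 1.68 and 3.85 at 1 U and 0.151, 0.155 and 0.263 at 10 U.

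HSP, which drives the rRNA genes and most protein-coding genes, rose on the H strand and fell on the L strand, relative to the library. Its H level was 37.2, 36.7 and 34.0 untreated, 65.7, 63.8 and 72.0 at 0.1 U, 140, 138 and 210 at 1 U and 43.1, 45.9 and 80.5 at 10 U. Log2 fold changes were 1.18 ± 0.19 (SE), 2.65 ± 0.19 and 0.93 ± 0.24 (adjusted p = 2.62e-06, 1.28e-14 and 0.00125, edgeR). Its L level was 41.9, 34.4 and 34.0 untreated, 12.5, 9.91 and 10.4 at 1 U and 12.5, 16 and 23.3 at 10 U, and it fell by 1.28 and 0.82. The H/L ratio of HSP went from 0.985 ± 0.0896 to 15.1 ± 4.68 at 1 U and 3.26 ± 0.332 at 10 U (SD).

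LSP, which drives ND6 and the replication primer, changed less on the H strand and gained L termini at 10 U. Its H level was 40.2, 37.3 and 41.3 untreated, 62.7, 90.7 and 98.5 at 1 U and 43.8, 38.3 and 51.4 at 10 U. It rose by 0.86 at 0.1 U and by 1.56 ± 0.18 (SE, adjusted p = 8.3e-10, edgeR) at 1 U, and the call at 10 U (0.49 ± 0.20) was kept by 3 of 9 alternatives. The L strand of LSP had 16.9, 16.6 and 17.4 untreated, 11.3, 8.87 and 6.20 at 1 U and 30.8, 34.5 and 17.1 at 10 U. It fell by 0.52 at 1 U, a call that 6 of 9 alternatives kept, and rose by 1.04 ± 0.21 at 10 U (adjusted p = 9.23e-05), where replicate 3 lay within the untreated range.

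The stretches beside the promoters were less alike. From CSB3 to LSP the H level was 13.4, 12.1 and 8.83 untreated and 42.6, 31.9 and 48.4 at 1 U (log2 fold change 2.31), and 10.3, 9.84 and 3.48 at 10 U (-0.06, adjusted p = 0.909, edgeR). From LSP to HSP, the longest window, the H level was 51.6, 52.2 and 52.7 untreated, 67.9, 72.5 and 95.1 at 1 U (1.05) and 42.0, 41.3 and 37.4 at 10 U (-0.05, adjusted p = 0.839). The 9 bases before tRNA-Phe had the highest untreated H level of the windows, at 128, 195 and 221. They had 232, 300 and 333 at 1 U (1.11 ± 0.17) and 74.6, 81.7 and 130 at 10 U (-0.69 ± 0.23, adjusted p = 0.0111), and on their L strand replicate 1 held 0 termini at 10 U, so no H/L ratio could be formed there.

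The third comparison asked which positions carried the termini. The highest position moved along the region with the amount of P1. On the H strand it was 573H beside tRNA-Phe without P1, 545H before HSP at 0.01 U, 268H between CSB1 and CSB2 at 0.1 and 1 U, and 221H in CSB1 at 10 U. On the L strand it was 538L, just before HSP, from untreated samples to 0.1 U, and 358L in CSB3 at 1 and 10 U, by group means. In untreated samples the 2 were close, at 3.82% ± 1.61 for 538L and 3.55% ± 0.209 for 358L. In untreated replicate 1, 358L was the higher (16 against 9 termini). At 1 U these L positions overlapped, with 4.04% ± 0.681 of L termini at 358L and 3.57% ± 0.826 at 538L. In replicate 3, 538L was the higher (30 against 26 termini). Replicate profiles were alike over the 388 positions. Up to 1 U, Pearson's r of the square roots of the shares was 0.804 to 0.963 on the H strand. It was 0.789 to 0.903 on the L strand. At 10 U r was 0.674 to 0.755 and 0.681 to 0.724. These are correlations across neighbouring positions of the same libraries and are a description.

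**Figure D3:**
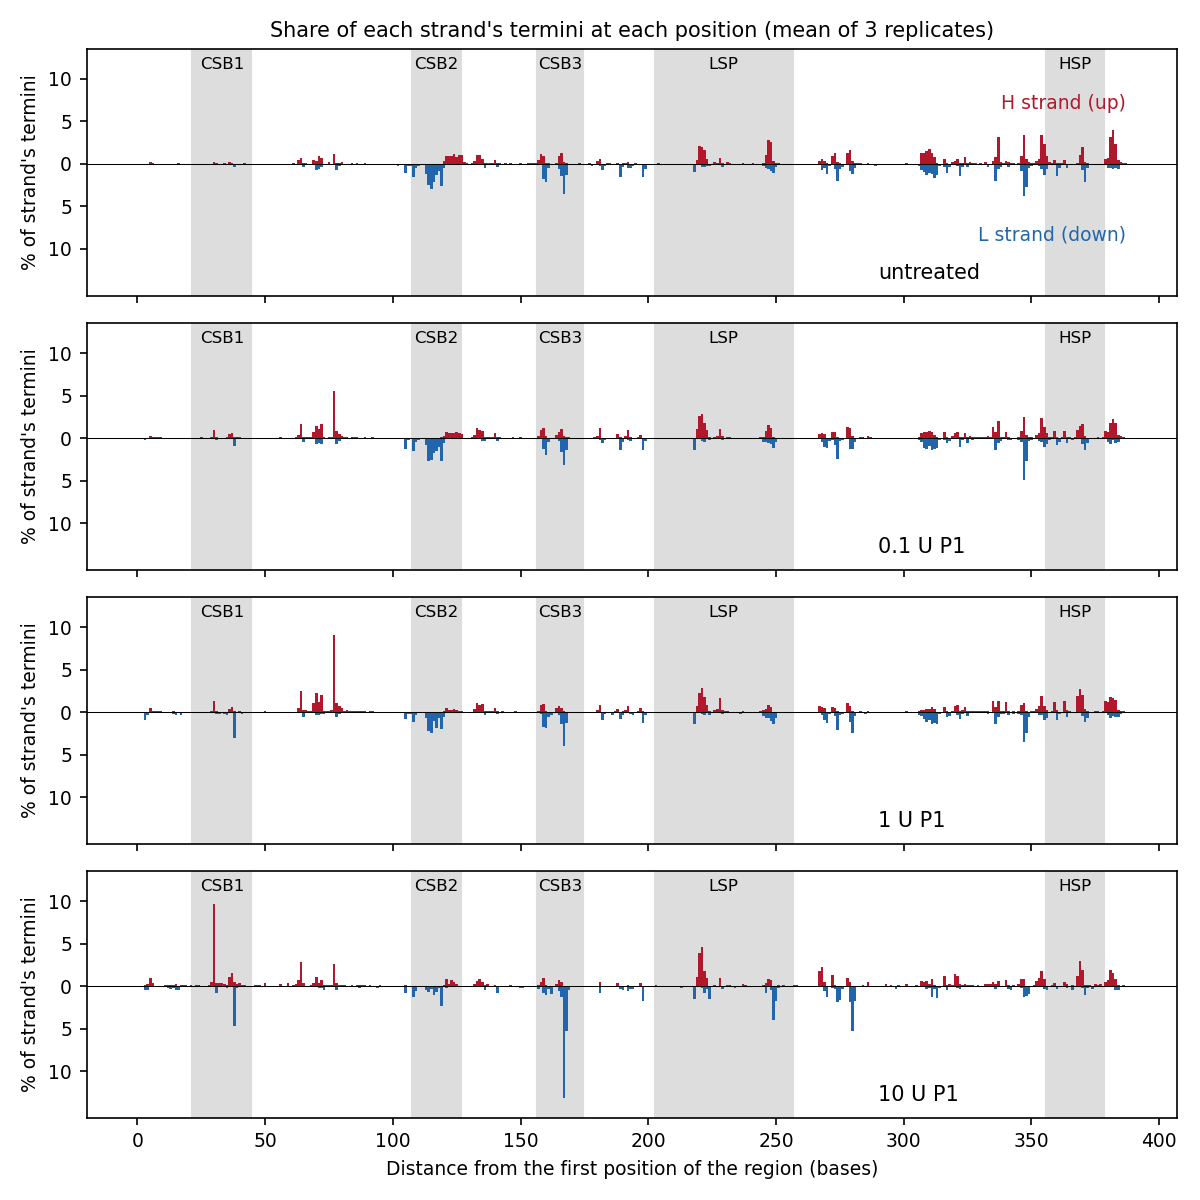
Share of each strand's termini in the region at each position (vertical, percent, mean of 3 replicates, H strand upward and L strand downward) by distance from the first position in bases, by amount of P1, with the elements shaded. The highest H bar lies between CSB1 and CSB2 at 1 U (9.11%) and in CSB1 at 10 U (9.62%), and the highest L bar at 10 U lies in CSB3 (13.2%).

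Termini were also more concentrated at 10 U. The 5 highest H positions held 14.6%, 19.9% and 19.1% of the region's H termini untreated, 19.6%, 19.5% and 20.4% at 1 U and 26.6%, 23.3% and 27.3% at 10 U (exact permutation p = 0.00493 over 5 amounts). The 5 highest L positions held 16.6%, 17.7% and 17.8% untreated, 14.6%, 16.5% and 18.3% at 1 U and 36.3%, 33.3% and 28.9% at 10 U (exact permutation p = 0.0274). All samples with 10 U lay above all others on both strands, also as group means of equal numbers of termini (25.9% ± 1.98 on the H strand and 32.8% ± 3.75 on the L strand). With fewer replicates the exact permutation tests did not pass 0.05 for the H strand without replicate 2 (p = 0.0667) or 3 (p = 0.100), nor for the L strand without replicate 1 (p = 0.142), 2 (p = 0.150) or 3 (p = 0.0917).

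Single positions were tested in the same way over 7161 positions and strands of the genome, of which 172 lay in the region (112 H and 60 L). The other members with termini had too few to be tested. The filter on low counts used samples of all amounts, so positions with few untreated termini passed it through treated samples. Such positions could hardly be called lower. With 0.01 U none was called (0% of 7161), with 9 of the 172 at an unadjusted p below 0.05 and none called by DESeq2. At 0.1 U, 41 H positions rose (33.7% of all H positions tested) and 1 fell (1.91%), and no L position rose (0.0361%) while 19 fell (29.3%). At 1 U, 78 H positions rose (52.1%) and 11 fell (9.64%), and 2 L positions rose (1.12%) while 41 fell (68.4%). At 10 U, 20 H positions rose (20.0%) and 19 fell (13.1%), and 11 L positions rose (14.0%) while 20 fell (27.7%). Median log2 fold changes over all H positions tested were 0.71, 1.15 and 0.24 at 0.1, 1 and 10 U. Those over all L positions tested were -0.80, -1.35 and -0.64.

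The calls at 0.1 U rested on single replicates more than the others did. Without replicate 2, 13 positions were called higher and 2 lower at 0.1 U, and without replicate 3, 16 and 3. At 1 U, 49 were called higher without replicate 3, and 26 lower without either replicate 2 or replicate 3. At 10 U without replicate 2, 18 were called higher and 17 lower.

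In CSB1, 7 H positions were tested and called higher at both 1 and 10 U, and 6 at 0.1 U, beside 52.1%, 20.0% and 33.7% of all H positions tested. The whole window held only 7, 13 and 10 untreated H termini, so its positions passed the filter on low counts through treated samples. They could hardly be called lower, and these counts are a description. Among them, 229H and 231H had no untreated terminus and could be called only higher. The main one, 221H, held 1, 5 and 3 termini untreated, 23, 23 and 59 at 0.1 U, 61, 120 and 78 at 1 U and 47, 46 and 36 at 10 U. As a share of the region's H termini it was 0.195% ± 0.0466 (SD, n = 3) untreated, 1.29% ± 0.428 at 1 U and 9.62% ± 1.59 at 10 U. Its log2 fold changes at 0.1, 1 and 10 U were 2.84, 3.99 and 5.67 ± 0.43 (SE, adjusted p = 1.46e-34 for the last, edgeR). The neighbouring base of the pair in capitals, 222L, held 1, 0 and 1 termini untreated and 4, 2 and 2 at 10 U, a ratio of 13.4 with a 95% counting interval of 2.68 to 130.

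Both strands carried termini at position 229 of CSB1. On the H strand no untreated sample held one, and 10, 11 and 8 were found at 1 U and 2, 2 and 2 at 10 U. Against a limit of 3 termini over the untreated group, 229H was at least 5.16-fold higher at 1 U and at least 6.72-fold higher at 10 U. On the L strand, 229L held 2, 5 and 4 termini untreated, 15, 37 and 31 at 1 U and 12, 17 and 14 at 10 U, with log2 fold changes of 2.11 (adjusted p = 9.59e-05, edgeR) and 3.84 ± 0.52 (adjusted p = 1.82e-11). At 10 U it was the L position with rank 4, at 4.69% ± 1.97 of L termini. The nearby 231H also had no untreated terminus and was at least 3.73-fold higher at 1 U, from 11, 6 and 4 termini.

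Position 268H, in the printed stretch between CSB1 and CSB2, was the strongest of the H strand at 0.1 and 1 U. It held 14, 9 and 5 termini untreated, 142, 166 and 291 at 0.1 U, 593, 526 and 706 at 1 U and 19, 12 and 5 at 10 U. As a share of H termini this was 1.12% ± 1.34 untreated, 5.53% ± 0.405 at 0.1 U, 9.11% ± 1.13 at 1 U and then 2.56% ± 1.39 at 10 U. The untreated replicates spread from 0.253% to 2.66%, and even the highest lay below every sample at 0.1 and 1 U. Log2 fold changes were 3.54, 4.98 ± 0.34 (SE, adjusted p = 8.98e-42, edgeR) and 1.94 (adjusted p = 0.00022). It did not stand alone in its window, where 17 of 18 tested H positions were called higher at 1 U and 4 at 10 U, beside 52.1% and 20.0% of all H positions tested. The whole window held only 56, 85 and 88 untreated H termini. Positions with few of them passed the filter on low counts through treated samples and could hardly be called lower. These counts are therefore a description.

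In CSB2 no tested position rose at any amount. On the L strand 4, 9 and 5 of 9 tested positions were called lower at 0.1, 1 and 10 U, beside 29.3%, 68.4% and 27.7% of all L positions tested. Position 310L was the highest of CSB2 in the mean over all 15 samples. It was below 306L in untreated samples (2.57% against 2.99% of L termini) and at 1 U (2.02% against 2.46%). It held 16, 31 and 41 termini untreated and 24, 24 and 14 at 1 U. Its log2 fold change at 1 U was -1.46 (adjusted p = 5.7e-05, edgeR), near the median of -1.35 over all L positions tested. On the H strand, 317H held 2, 36 and 22 termini untreated, 16, 10 and 5 at 1 U and 0, 1 and 0 at 10 U, where its ratio to untreated was 0.056 (95% counting interval 0.00139 to 0.324). The next base, 318H, the first of the following window, held 4, 24 and 22 untreated and none in any sample at 10 U, and was at least 4.96-fold lower against a limit of 3 termini over the group.

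In CSB3, 358L carried the gain of the window at 10 U. It held 16, 67 and 57 termini untreated, 46, 53 and 26 at 1 U and 56, 60 and 21 at 10 U, from far fewer termini in all. Its share of L termini was 3.55% ± 0.209 untreated, 4.04% ± 0.681 at 1 U and 13.2% ± 2.99 at 10 U, with every sample at 10 U above every other sample. Log2 fold changes were -0.89, -1.11 and 1.65 ± 0.29 (SE, adjusted p = 0.011, 0.000424 and 3.56e-07, edgeR). The medians over all L positions tested were -0.80, -1.35 and -0.64. The call at 0.1 U was kept by 3 of 7 alternatives, that at 1 U by 6 and that at 10 U by all 7. In the same window 353L and 359L were also called higher at 10 U.

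**Figure D4:**
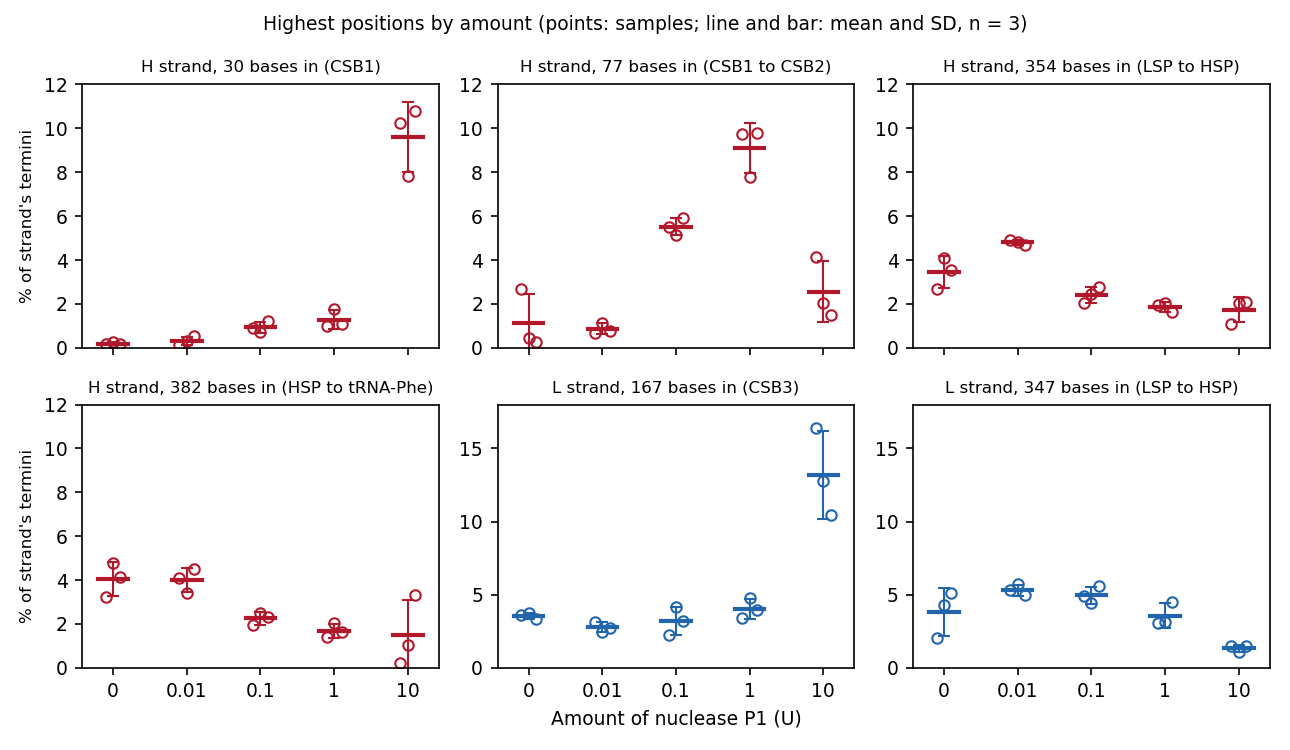
Share of the strand's termini in the region (vertical, percent) at the 6 positions that were highest at some amount, by amount of P1; points are samples, lines and bars are mean and SD of 3 replicates. Peaks before HSP and tRNA-Phe (354 and 382 bases in on the H strand, 347 on the L strand) are highest at 0 to 0.1 U, that between CSB1 and CSB2 (77 bases in) at 1 U (9.11%), and those in CSB1 (30 bases in) and CSB3 (167 bases in) at 10 U (9.62% and 13.2%).

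In LSP the pair 411H and 412H, whose bases are the capitals of the printed stretch, rose relative to library size and moved up in rank, from 10 and 12 untreated to 3 and 2 at 10 U. At 412H there were 10, 38 and 41 termini untreated, 142, 224 and 205 at 1 U and 26, 19 and 16 at 10 U. Its share of H termini was 1.94% ± 0.113, 2.83% ± 0.495 and 4.57% ± 1.24, and its log2 fold changes were 1.85 ± 0.28 (SE, adjusted p = 1.44e-09, edgeR) at 1 U and 1.31 ± 0.35 (adjusted p = 0.00116) at 10 U. Of the alternatives, 5 of 7 kept the call of 412H at 10 U. Position 411H rose by 1.41 at 1 U, and its call at 10 U (0.98) was kept by 4 of 7. Within the same window 439H went the other way, from 6, 66 and 64 termini untreated to 28, 54 and 28 at 1 U and 3, 1 and 5 at 10 U (-1.07 and -2.0, adjusted p = 0.000775 and 0.000499, edgeR). On the L strand 415L, 440L and 441L were called higher at 10 U.

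Between LSP and HSP the highest L peak of untreated samples by mean share fell with both its neighbours, as most tested L positions did at 1 U. At 538L there were 9, 77 and 88 termini untreated, 41, 35 and 30 at 1 U and 5, 5 and 3 at 10 U, and its share of L termini was 3.82% ± 1.61, 3.57% ± 0.826 and 1.34% ± 0.240. Its log2 fold changes were -1.52 at 1 U (adjusted p = 1.21e-06, edgeR) and -1.89 at 10 U (adjusted p = 0.000196), and those of its neighbour 539L were -1.43 and -1.45. The medians over all L positions tested were -1.35 and -0.64, so at 1 U both positions lay near the strand as a whole. The other neighbour, 537L, was called lower at 0.1 U (-1.62, kept by 2 of 5 alternatives) and at 1 U (-2.34, kept by all 5). Farther from HSP, 508L was lower at 0.1 and 1 U (-1.80 and -2.02), and 498L and 499L had no terminus at 10 U, at least 2.78-fold and 3.77-fold lower than untreated. Against this, 471L held 2, 27 and 24 termini untreated and 15, 30 and 10 at 10 U, a rise of 1.83 ± 0.38 (SE, adjusted p = 1.75e-05) to 5.24% ± 1.02 of L termini.

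On the H strand before HSP, 545H held 14, 84 and 70 termini untreated, 119, 138 and 116 at 1 U and 5, 12 and 7 at 10 U. Its share was 3.43% ± 0.727 untreated, 4.81% ± 0.108 at 0.01 U, 1.87% ± 0.230 at 1 U and then 1.74% ± 0.567 at 10 U. The number was lower at 10 U (log2 fold change -0.97, adjusted p = 0.037, edgeR), a call that 4 of 7 alternatives kept, and it did not pass the test at the other amounts.

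HSP itself held positions that went opposite ways. At 559H there were 0, 1 and 3 termini untreated, 21, 32 and 48 at 0.1 U, 121, 94 and 174 at 1 U and 4, 8 and 5 at 10 U. Its log2 fold changes were 3.92, 5.69 ± 0.48 (SE, adjusted p = 6.12e-28, edgeR) and 3.86, all kept by the 7 alternatives. With so few untreated termini, 559H passed the filter on low counts through treated samples and could hardly be called lower. At 547H, the first base of the window, there were 4, 25 and 19 termini untreated and none at 10 U, at least 4.77-fold lower against a limit of 3 termini over the group. On the L strand 561L fell from 1, 22 and 14 termini to 4, 4 and 4 at 1 U (-2.37, adjusted p = 6.49e-05, edgeR).

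Beside tRNA-Phe, 573H was the highest H position without P1, and it lost share as P1 increased. It held 17, 98 and 82 termini untreated, 86, 138 and 117 at 1 U and 1, 6 and 11 at 10 U. Its share was 4.06% ± 0.783 untreated, 2.25% ± 0.281 at 0.1 U, 1.69% ± 0.323 at 1 U and 1.51% ± 1.60 at 10 U, where replicates spread from 0.218% to 3.30%. Its log2 fold change was -0.01 at 1 U (adjusted p = 0.978, edgeR) and -1.59 ± 0.41 (SE) at 10 U (adjusted p = 0.00076). At the other end of the region, 194L rose at 1 U (1.94, adjusted p = 0.0261), from 0, 2 and 2 termini to 3, 18 and 6, and 4 of 6 alternatives kept that call.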

How the data were processed

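Termini of K562 mitochondrial DNA were analysed in 15 samples, grouped by P1 amount and replicate number from their titles. Per the methods, the authors kept read pairs of high base quality that carried the G and T stretches added during library making, trimmed them, aligned them with BWA-MEM 0.7.12 to the mitochondrial genome alone, and took the first base after the T stretch of uniquely mapped pairs. The authors deposited counts of termini per position and strand, whose RPM values were not used. Removal of PCR duplicates is not given in the sources used here, so repeated molecules could raise single positions.

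The region, windows and lists were chosen with earlier results of these data known. Ratios and shares were compared over the 5 amounts by two-sided exact permutation within replicate numbers (smallest possible p = 6.94e-05). Windows and positions were fitted with edgeR 4.0.16 (R 4.3.3; TMM, filterByExpr, replicate number as a block) over the whole genome, with DESeq2 1.42.0 as an alternative. The code was tested on simulated data. Positions were named if among the 5 highest mean shares of a strand, highest at an amount, or among the 2 largest called changes each way per amount and strand (26 in all). Files' positions were not converted: their chrM has 16571 bases and the GRCh37 reference 16569. Python 3.11.15 with SciPy 1.17.1 and Matplotlib 3.10.9 was used.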

Additional observations from a re-analysis of the deposited data

How the results depend on the processing

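No window or named position that was called reversed under an alternative. Of 1488 alternative results, 1359 stayed on the same side of the threshold, 114 lost and 15 gained a call. Direction was not compared where nothing was called, and there it could change. CSB2 on the H strand at 1 U had a log2 fold change of -0.23, with alternatives from -0.68 to 0.19. The L share at 10 U reversed when taken of the termini outside the NCR (0.889 times untreated, in place of 2.03). In unique sites the region over the outside was 1.06 times untreated at 1 U and 0.965 at 10 U (exact permutation p = 0.163). Windows called lower at 10 U were 10 with outside library sizes (6 with TMM). Positions called higher at 0.1 U were 25 with DESeq2 (41 with edgeR). Without the filter, positions called lower were 1 at 0.1 U (20 with it) and 26 at 1 U (52), and higher at 10 U 17 (31). The causes of these moves were not tested, beyond the larger number of rows adjusted for without the filter.

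Leaving out 1 replicate gave these ranges. The L share over untreated was 0.713 to 0.873 at 1 U and 1.96 to 2.08 at 10 U, and the region over the D-loop body 1.32 to 2.40 and 2.70 to 3.74. The share on the 5 highest positions at 10 U was 1.29 to 1.61 times untreated on the H strand and 1.75 to 2.03 on the L strand. Windows called lower were 0 to 5 at 0.1 U and 2 to 5 at 10 U. Positions called higher were 13 to 47 at 0.1 U, 49 to 90 at 1 U and 18 to 26 at 10 U, and lower 2 to 17, 26 to 56 and 17 to 31.

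The replicate block was kept because the methods compare treated and untreated samples of 1 number. Of 30 same-number correlations over 22 windows, 14 were above 0.1 (median 0.0585). Among 0.01, 0.1 and 1 U all were positive, from 0.257 to 0.788. Pairs with untreated or 10 U samples went from -0.506 to 0.485. Without the replicate block, windows called higher and lower were 10 and 6 at 0.1 U, 12 and 9 at 1 U and 8 and 6 at 10 U, and positions 39 and 19, 81 and 51, and 31 and 39. Depth limits the 10 U samples most, with 201 to 471 L termini each in the region.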
